A study of Mus musculus with 6 samples.

Results

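A set of 67 genes that build or serve the cilium and the centrosome was examined in testes of Dazap1 mutant and wild-type mice. Members were the genes whose symbol on the array begins with Ift, Bbs, Nphp, Tctn, Cep or Cetn followed by a number, and they make up 67 of 18193 genes that have a probe set naming 1 gene. By role they were 3 subunits of intraflagellar transport complex A (IFT-A), 11 of complex B (IFT-B), 6 of the BBSome and 2 chaperonin-like BBS genes. The others were 4 Nphp and Tctn genes of the ciliary transition zone, 4 centrins and 37 Cep genes. The rule used symbols alone and no measured value, though it was chosen with earlier results of these data known. Whole testes were dissected at postnatal day 21 from Dazap1 Fn/Fn mutants (Fn) and from wild-type mice (Wt) of a mixed C57BL/6 and 129 background, with 3 biological replicates of each genotype and 1 Affymetrix Mouse Genome 430 2.0 array per replicate. The Fn allele (floxed with neo) encodes an aberrant DAZAP1 protein with an inserted segment between its RNA recognition motifs, in every cell of the animal. Most homozygotes die around birth, so the Fn testes came from survivors, which grow poorly. The sources used here do not give how many animals stood behind each RNA.

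Cilia and flagella are assembled at their tips from parts that intraflagellar transport trains carry along the axoneme. Kinesin-2 moves the trains outward together with IFT-B, dynein-2 returns them together with IFT-A, and the BBSome links membrane cargo to them. A cilium grows from a basal body, which is a centriole anchored to the membrane, and the transition zone above it acts as a gate for proteins. In the testis the flagellum of each sperm grows from a centriole of the round spermatid after meiosis, while spermatocytes use their centrosomes to organise the meiotic spindles, and somatic cells of the testis can carry primary cilia.

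The deposited values are MAS5 signals, a linear intensity for each probe set. The brightest probe set stood for its gene, and log2 signals were tested with limma over the 27022 probe sets whose geometric mean reached the 40th percentile, a signal of 48.0. The targeted gene, Dazap1, read 2538, 2735 and 2819.8 in Fn testes, against 4323, 4462 and 5046 in Wt testes, a log2 change of -0.77 (limma adjusted p = 6.7e-05). The sources used here do not place its probe set relative to the altered part of the gene, which makes it a partial check of the labels. Among the 13447 genes tested the median log2 change, Fn minus Wt, was 0.32, or 0.25 after quantile normalization and 0.17 with each array centred on its median, and changes are also given relative to that median. The labels give 3 biological replicates a group, and p-values reflect only their spread.

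The set was lower in Fn testes. Of the 67 members, all of which passed the filter, 47 (70.1%) fell and 4 (5.97%) rose at an adjusted p under 0.05 from limma, and 16 did not pass. Of all genes tested, 24.7% fell and 44.9% rose. By more than 2-fold between geometric means, 24 members (35.8%) were lower and 2 (2.99%) were higher, against 13.7% and 11.2% of all genes. All 3 Fn values lay below all 3 Wt values in 51 members (76.1%) and above them in 7 (10.4%), against 26.6% and 48.9% of all genes. The median log2 change of the members was -0.69, or -1.01 relative to all genes, and single members ran from -4.49 for Cep295nl to 1.15 for Cep170b. In RNA of whole testes, fewer cells of a type and less RNA per cell cannot be told apart.

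The fall was not even over the roles. All 14 Ift genes fell, with a median log2 change of -1.11, and so did all 6 BBSome genes (median -0.62). All 4 Nphp and Tctn genes of the transition zone fell too (median -0.69), with Cep290 of the same zone counted under Cep. Of the 4 centrins 3 fell and 1 rose. Of the 37 Cep genes 20 fell, 3 rose and 14 did not pass, with a median of -0.57. These medians are descriptions over genes that share the same 6 arrays, and the differences between roles were not tested.

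**Figure D1:**
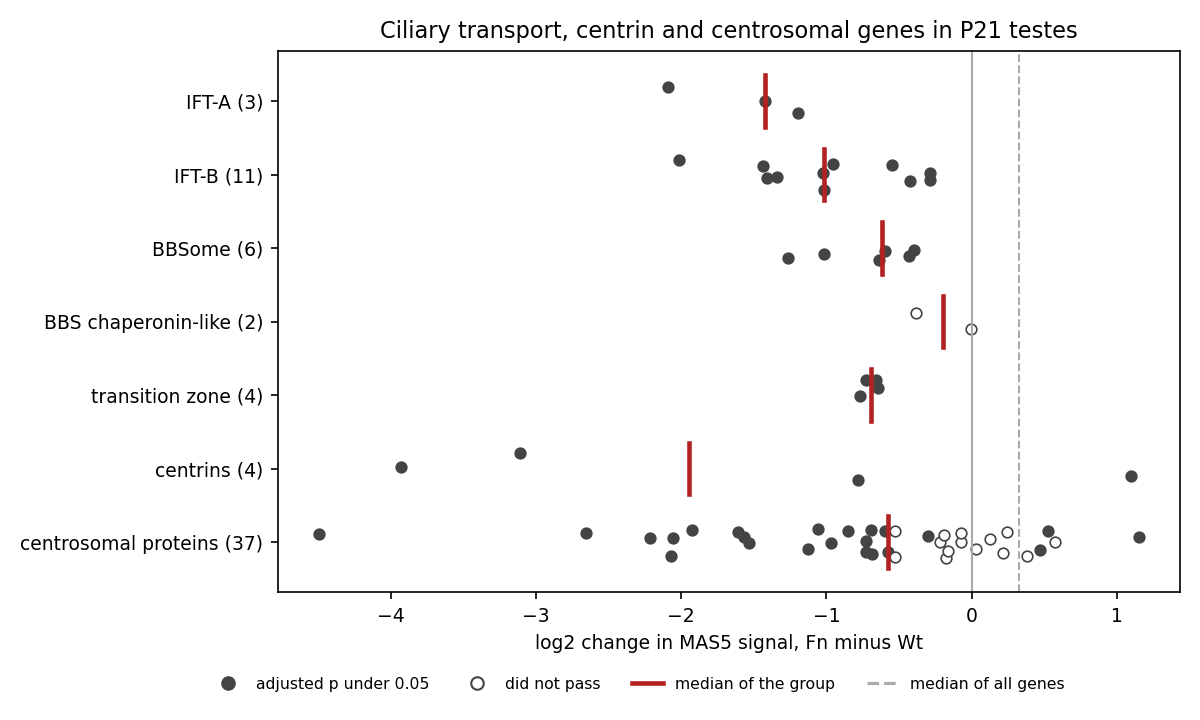
Each point is 1 of the 67 genes, placed by its log2 change in MAS5 signal (Fn minus Wt, 3 arrays each) within its role; filled points had a limma adjusted p under 0.05, red bars mark the median of a role, and the dashed line marks the median of all genes tested, 0.32. The 14 points of IFT-A and IFT-B all lie left of 0, whereas Cep genes reach from -4.49 to 1.15.

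The 3 IFT-A subunits on the array all fell by more than 2-fold. Ift140, a core subunit of the retrograde complex, had signals of 1712, 2146 and 1854 in Fn testes, against 7549.5, 7605 and 9220.4 in Wt testes, a log2 change of -2.09 with a standard error of 0.11 (limma adjusted p = 5.4e-07), the largest change of any Ift gene. Ift122, another core subunit, had 1999, 2249 and 1836 in Fn testes, against 5360.2, 5101 and 5803 in Wt testes, a log2 change of -1.42 with a standard error of 0.096 (limma adjusted p = 2.4e-06). Its second probe set gave -1.60. The signals of Ift43, a small peripheral subunit, were 2358, 2559 and 2314 in Fn testes, against 5121, 5833 and 5643 in Wt testes, a log2 change of -1.20 with a standard error of 0.084 (limma adjusted p = 2.9e-06). Fn and Wt signals lay far apart in all 3 genes.

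Among the 11 IFT-B subunits the log2 changes ran from -2.02 to -0.29, and 6 were lower by more than 2-fold. Ift172, the largest IFT-B subunit, had signals of 1025, 1069 and 891 in Fn testes, against 3647, 3788 and 4676 in Wt testes, a log2 change of -2.02 with a standard error of 0.12 (limma adjusted p = 1.0e-06). Ift74, which with Ift81 forms a module that binds tubulin, had 2329, 2608 and 2271 in Fn testes, against 5969, 6986 and 6583 in Wt testes, a log2 change of -1.44 with a standard error of 0.09 (limma adjusted p = 1.5e-06). Ift46, needed for carrying outer dynein arms in Chlamydomonas, read 1637, 1956 and 1794 in Fn testes, against 4224, 4734 and 5390.2 in Wt testes, a log2 change of -1.41 with a standard error of 0.11 (limma adjusted p = 5.9e-06). In these 3 genes the Fn signals were 2.66- to 4.05-fold lower by geometric mean, with a wide gap between the groups. Ift22, a small GTPase-like subunit formerly named Rabl5, read 1378, 1291 and 1426 in Fn testes, against 2977, 3596 and 3846 in Wt testes, a log2 change of -1.34 with a standard error of 0.11 (limma adjusted p = 8.4e-06). Ift80 read 1125, 1178 and 1075 in Fn testes, against 2313, 2033 and 2545 in Wt testes, a log2 change of -1.02 with a standard error of 0.11 (limma adjusted p = 4.0e-05), and its second probe set gave -1.24.

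Ift57, Ift27 and Ift88 also had all Fn signals below all Wt signals, with more scatter among the Fn testes. Ift57 had 903, 1063 and 694 in Fn testes, against 1821, 1786 and 1685 in Wt testes, a log2 change of -1.01 with a standard error of 0.15 (limma adjusted p = 0.00029). Ift27, a small GTPase that links the trains to the BBSome, had 766, 1129.5 and 678 in Fn testes, against 1375, 1946 and 1604 in Wt testes, a log2 change of -0.96 with a standard error of 0.19 (limma adjusted p = 0.002), and its other probe sets gave -1.13 and -0.89. For Ift57 a second probe set below the filter read 50.7, 66.5 and 35.7 in Fn testes, against 29.0, 37.1 and 41.8 in Wt testes, and with the mean of both probe sets the change was -0.27 (adjusted p = 0.27 from limma). Ift88, whose loss in mice gives short or absent cilia, had 1034, 1233 and 1045 in Fn testes, against 1498, 1604 and 1730.4 in Wt testes, a log2 change of -0.55 with a standard error of 0.11 (limma adjusted p = 0.0019).

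The other 3 IFT-B genes fell by less. Ift20, which also works at the Golgi and is required for mouse sperm flagella, read 942, 1144 and 778 in Fn testes, against 1182, 1494 and 1149.5 in Wt testes, a log2 change of -0.42 with a standard error of 0.16 (limma adjusted p = 0.04). The highest Fn and the lowest Wt signal nearly touched, and the call was lost without the filter (adjusted p = 0.054) and without Wt replicate 1 (adjusted p = 0.056), Wt replicate 2 (0.15), Fn replicate 1 (0.091) or Fn replicate 3 (0.13). Ift52 read 1445, 1479 and 1398 in Fn testes, against 1696, 1825 and 1764 in Wt testes, a log2 change of -0.29 with a standard error of 0.088 (limma adjusted p = 0.016), and lost its call without Wt replicate 2 (adjusted p = 0.059) or Fn replicate 1 (0.051). Ift81 read 1550.3, 1832 and 1479 in Fn testes, against 1859, 1915 and 2148 in Wt testes, a log2 change of -0.29 with a standard error of 0.11 (limma adjusted p = 0.043). Its call was lost without Wt replicate 1, 2 or 3 or Fn replicate 1 or 3 (adjusted p = 0.054 to 0.13), with quantile normalization (0.056) and without the filter (0.058). With the mean of its probe sets, 1 of which lay below the filter, the change of Ift81 was 0.14 (adjusted p = 0.61).

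All 6 BBSome genes fell, 2 of them by more than 2-fold. Bbs7 read 808, 1087 and 742 in Fn testes, against 1939, 2154 and 2161 in Wt testes, a log2 change of -1.26 with a standard error of 0.14 (limma adjusted p = 6.5e-05). A second Bbs7 probe set lay below the filter with signals of 1.5 to 21.4 in the 6 arrays, and the mean of both gave -0.34 (adjusted p = 0.64 from limma). Bbs1, the subunit most often mutated in people with Bardet-Biedl syndrome, read 362, 486 and 412 in Fn testes, against 819, 861 and 856 in Wt testes, a log2 change of -1.02 with a standard error of 0.13 (limma adjusted p = 0.00016). Fn and Wt signals of both genes were well apart.

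Bbs4, which contacts centriolar satellites, read 517, 515 and 504 in Fn testes, against 762, 784 and 848 in Wt testes, a log2 change of -0.64 with a standard error of 0.11 (limma adjusted p = 0.00073), and the Fn signals spanned only 504 to 517. The signals of Bbs5, a phosphoinositide-binding subunit, were 525, 614 and 490.0 in Fn testes, against 902, 718 and 847 in Wt testes, a log2 change of -0.60 with a standard error of 0.14 (limma adjusted p = 0.0039). Bbs9 had 830.5, 824 and 862 in Fn testes, against 1061, 1157 and 1183 in Wt testes, a log2 change of -0.43 with a standard error of 0.1 (limma adjusted p = 0.0042). In all 3 the Fn and Wt signals were apart, by a smaller margin than in Bbs7. Bbs2 had 491, 555 and 579 in Fn testes, against 599, 787 and 762 in Wt testes, a log2 change of -0.40 with a standard error of 0.14 (limma adjusted p = 0.033), and this call was lost without Wt replicate 2 (adjusted p = 0.11), Wt replicate 3 (0.093), Fn replicate 1 (0.12) or Fn replicate 2 (0.053). The chaperonin-like genes, which help to assemble the BBSome, did not pass. Bbs10 read 270.2, 392 and 332 in Fn testes, against 435, 394 and 456 in Wt testes, a log2 change of -0.38 with a standard error of 0.16 (limma adjusted p = 0.063). With arrays centred on their medians it reached -0.54 (adjusted p = 0.019), and its second probe set gave -0.65 (adjusted p = 0.0075). Bbs12 read 225, 210.4 and 184 in Fn testes, against 216, 189 and 216 in Wt testes, and its groups overlapped fully, with a log2 change of -0.01 (standard error 0.16).

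The 4 Nphp and Tctn members of the transition zone changed by nearly the same amount, between -0.77 and -0.65. Cep290, also of the transition zone, was counted with the Cep genes and did not pass, at -0.22 (limma adjusted p = 0.19). Nphp4, of the nephrocystin module, had 208, 172 and 223 in Fn testes, against 345, 416 and 276 in Wt testes, a log2 change of -0.77 with a standard error of 0.19 (limma adjusted p = 0.0057). A second Nphp4 probe set lay below the filter, and the mean of both gave -0.10 (adjusted p = 0.85 from limma). The tectonics are proteins of the gate that also shape Hedgehog signalling. Tctn1 had 636, 917 and 903 in Fn testes, against 1256, 1262 and 1508 in Wt testes, a log2 change of -0.73 with a standard error of 0.16 (limma adjusted p = 0.0027). Tctn2 had 943, 966 and 1135 in Fn testes, against 1519, 1484 and 1794 in Wt testes, a log2 change of -0.66 with a standard error of 0.12 (limma adjusted p = 0.00099). For Tctn3 the signals were 487, 528 and 613 in Fn testes, against 769, 807 and 973 in Wt testes, a log2 change of -0.65 with a standard error of 0.14 (limma adjusted p = 0.0027). A second Tctn3 probe set gave -1.11, and the mean of all its probe sets gave -1.22. None of the 4 reached a 2-fold fall by its brightest probe set, and all had Fn signals below Wt signals.

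**Figure D2:**
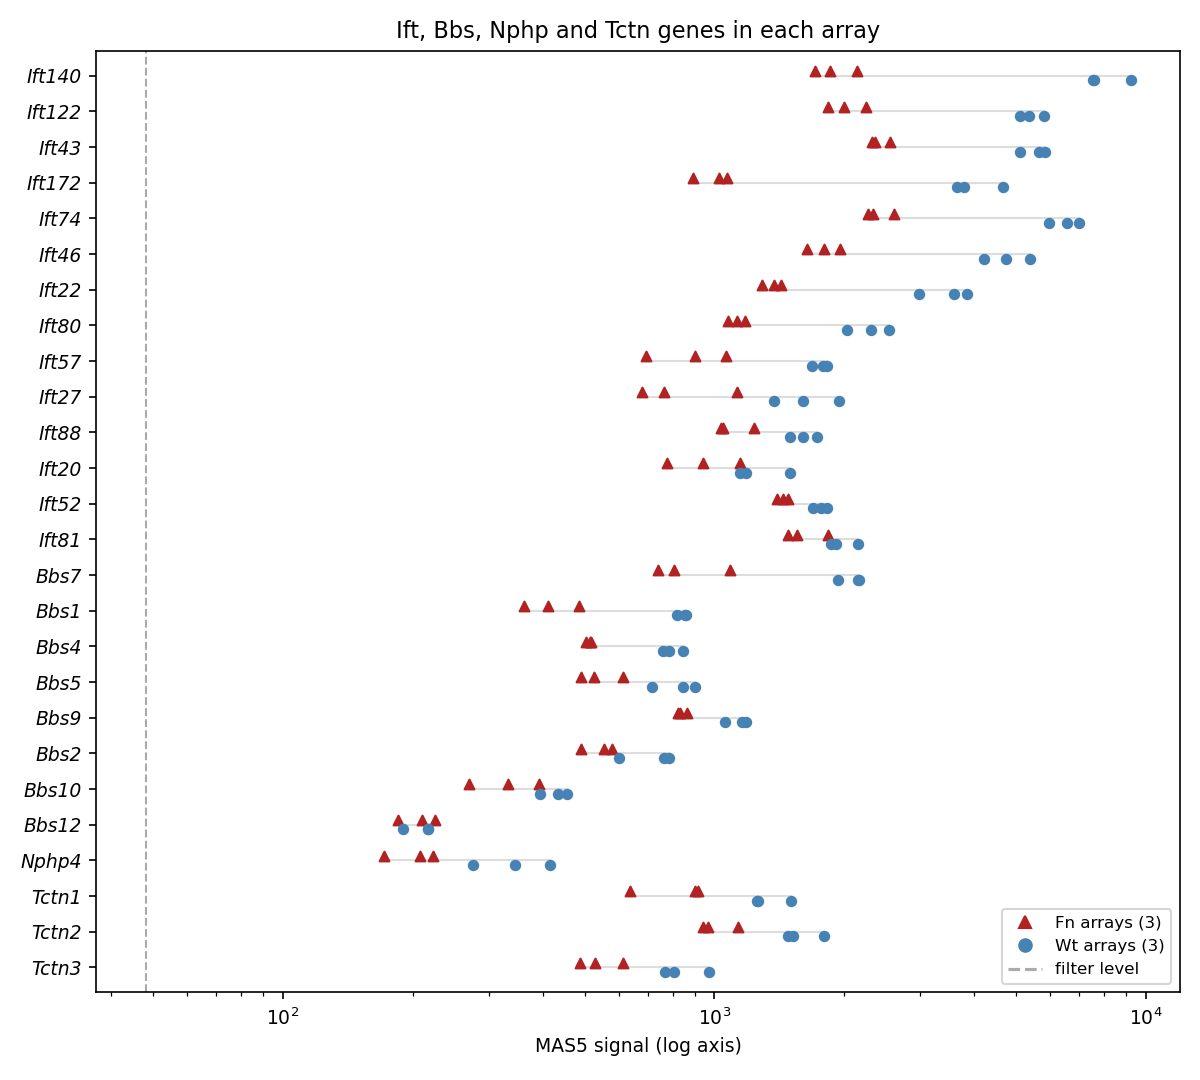
MAS5 signal on a log axis in each of the 3 Fn arrays (red triangles) and 3 Wt arrays (blue circles) for every Ift, Bbs, Nphp and Tctn gene, with the filter level of 48.0 dashed. The groups are widely apart for Ift140 and Ift172, nearly touch for Ift20 and Ift81, and overlap for Bbs12.

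The centrins, small calcium-binding proteins of centrioles, held both the largest falls outside the Cep genes and 1 of the largest rises. Cetn1, the centrin of male germ cells and photoreceptors, read 664, 1284 and 386 in Fn testes, against 9347, 11435 and 10774 in Wt testes, a log2 change of -3.93 with a standard error of 0.34 (limma adjusted p = 1.2e-05), which is 15.2-fold lower. Fn replicate 2 was the highest and Fn replicate 3 the lowest, and even the highest was under the lowest Wt signal by far. A second Cetn1 probe set gave -2.94. Cetn4, known from ciliated cells, read 1066, 1145 and 1117 in Fn testes, against 8462, 11145 and 9226 in Wt testes, a log2 change of -3.11 with a standard error of 0.11 (limma adjusted p = 1.1e-07), or 8.61-fold lower, with little scatter among the Fn testes. Its second, dimmer probe set gave -2.48.

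Cetn3, a widely expressed centrin, read 3801, 3564 and 3350.3 in Fn testes, against 5779, 6219 and 6393 in Wt testes, a log2 change of -0.78 with a standard error of 0.079 (limma adjusted p = 3.4e-05). Cetn2, the centrin found in most dividing cells and also a partner of the XPC DNA repair protein, went the other way. It read 2004, 1971 and 1897 in Fn testes, against 978, 984 and 799 in Wt testes, a log2 change of 1.09 with a standard error of 0.11 (limma adjusted p = 3.1e-05), or 2.14-fold higher in Fn testes, and its second probe set gave 1.25. Cetn2 passed the test in every setting run. The count of members higher by more than 2-fold, which was 2 with Cep170b, became 0 with the arrays centred on their medians and 1 without Wt replicate 3. Cetn2 is the only one of the 67 members on the X chromosome. The brightest Cetn2 probe set is of a type that can cross-hybridise, and the second is not.

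**Figure D3:**
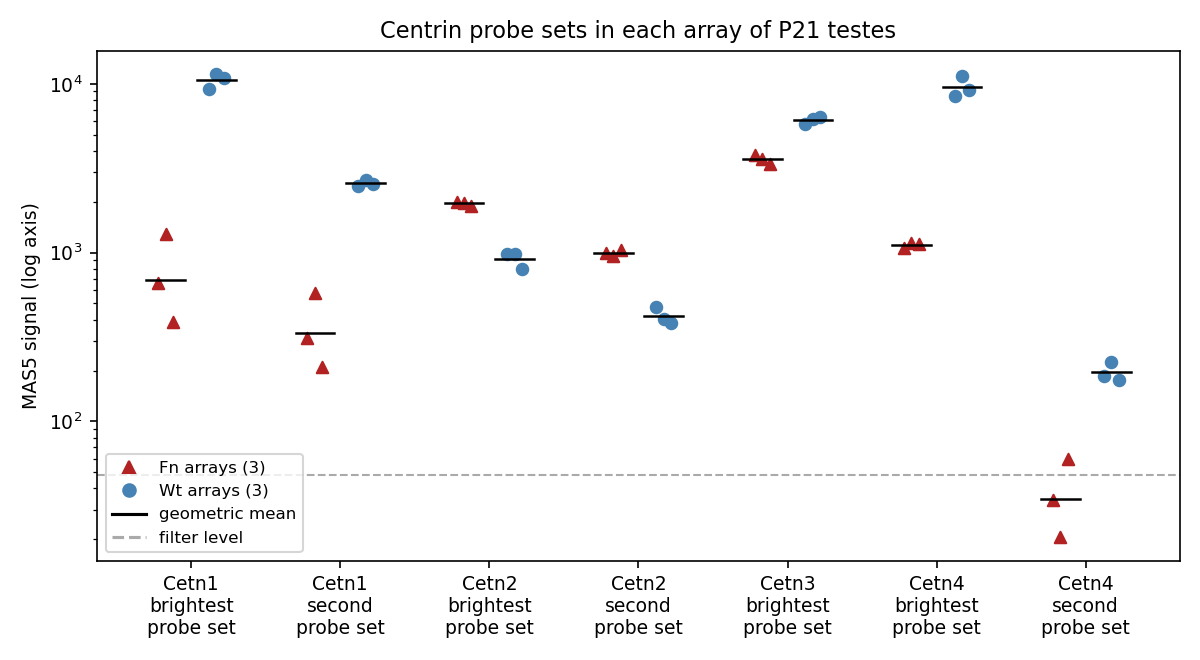
MAS5 signal on a log axis for each probe set that names a single centrin gene, with 3 Fn arrays (red triangles), 3 Wt arrays (blue circles), the geometric mean of each group as a black line and the filter level of 48.0 dashed. Both Cetn1 and both Cetn4 probe sets lie lower in Fn testes, and both Cetn2 probe sets lie higher.

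Cep genes encode centrosomal proteins of many kinds, and they held the largest fitted fall of the whole set. Cep295nl, a gene named for its likeness to part of Cep295, had 9.3, 73.4 and 28.3 in Fn testes, against 735, 398 and 754 in Wt testes. Its Fn geometric mean lay below the filter level, so the fall was at least 12.6-fold (adjusted p = 0.0002 from limma). That bound is smaller than the 15.2-fold fall of Cetn1, so which gene fell more is not settled. The fitted log2 change of Cep295nl, -4.49, became -3.73 without Fn replicate 1 and -5.22 without Fn replicate 2. Cep128, of the subdistal appendages of the mother centriole, had 486, 717 and 378 in Fn testes, against 2939, 3439 and 3242 in Wt testes, a log2 change of -2.65 with a standard error of 0.2 (limma adjusted p = 4.8e-06). Cep131, a centriolar satellite protein required for the mouse sperm flagellum, had 150.1, 152 and 139 in Fn testes, against 480.3, 902 and 728 in Wt testes, a log2 change of -2.21 with a standard error of 0.22 (limma adjusted p = 2.7e-05). All 3 had Fn signals far below Wt signals.

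Cep63 and Cep57 take part in centriole duplication and in the matrix around centrioles. Cep63 read 1193, 1328 and 1024 in Fn testes, against 4772, 4654 and 5436 in Wt testes, a log2 change of -2.07 with a standard error of 0.11 (limma adjusted p = 6.6e-07). Cep57 read 712, 630.2 and 758 in Fn testes, against 2019, 2009.9 and 2388 in Wt testes, a log2 change of -1.61 with a standard error of 0.12 (limma adjusted p = 3.6e-06). Both gave smaller scatter than the distance between groups, and their second probe sets gave -1.20 for Cep63 and -2.01 for Cep57. Cep72, a satellite protein, read 807, 1016 and 865 in Fn testes, against 3168, 3319.8 and 3672 in Wt testes, a log2 change of -1.92 with a standard error of 0.11 (limma adjusted p = 9.4e-07). Cep164, a distal appendage protein needed to dock the mother centriole for ciliogenesis, read 513, 525 and 472 in Fn testes, against 1093, 1616 and 1736 in Wt testes, a log2 change of -1.53 with a standard error of 0.17 (limma adjusted p = 5.6e-05), and its second probe set gave -1.55. Fn signals of Cep164 spanned 472 to 525, whereas those of Wt were spread more widely.

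For Cep126 the probe sets differed. The brightest read 444, 446 and 360.4 in Fn testes, against 1591, 1640.2 and 1967 in Wt testes, a log2 change of -2.06 with a standard error of 0.13 (limma adjusted p = 1.8e-06), whereas a second one gave -0.05 (adjusted p = 0.84), and the mean of both was -1.05. Cep83os, a transcript named for the strand opposite Cep83, read 1945, 2201 and 1813 in Fn testes, against 5885, 5295 and 6444 in Wt testes, a log2 change of -1.56 with a standard error of 0.1 (limma adjusted p = 2.0e-06), and its second probe set gave -0.44. Cep83 itself, a distal appendage gene, had a log2 change of -0.17 (adjusted p = 0.1). With the mean of all Cep83 probe sets the sign turned to 0.55 (adjusted p = 0.031), 1 of the 3 probe sets lying below the filter.

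Cep95, Cep135 and Cep76 completed the larger falls among the Cep genes. Cep95 had 696, 801 and 564 in Fn testes, against 1320.3, 1548 and 1598 in Wt testes, a log2 change of -1.13 with a standard error of 0.14 (limma adjusted p = 0.00014). Cep135, a cartwheel protein at the core of new centrioles, had 89.7, 102 and 68.7 in Fn testes, against 149, 173 and 218 in Wt testes, a log2 change of -1.06 with a standard error of 0.24 (limma adjusted p = 0.0035). Cep76, which limits reduplication of centrioles, had 299.9, 357 and 273 in Fn testes, against 605, 597 and 607 in Wt testes, a log2 change of -0.97 with a standard error of 0.14 (limma adjusted p = 0.00024), just short of a 2-fold fall, and the mean of its probe sets gave -0.57. The groups did not overlap in any of these genes.

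The other 8 Cep genes that fell did so by smaller steps. Cep19, which recruits IFT trains to the ciliary base, had a log2 change of -0.85, and Cep162, a protein of the distal centriole end, had -0.73. Cep57l1 had -0.73, Cep70 had -0.69 and Cep120, which controls centriole length, had -0.69. Cep89, a distal appendage gene, had -0.60 by its brightest probe set, -1.39 and -3.32 by the others and -1.77 by their mean. Cep55, which in germ cells sits in the bridges that join sister cells, had -0.57. Cep43 had -0.30, and its call was lost without Wt replicate 2 (adjusted p = 0.10), Wt replicate 3 (0.072), Fn replicate 1 (0.089) or Fn replicate 3 (0.060). Cep57l1 did not pass with the mean of all its probe sets, at -0.88 (adjusted p = 0.070), 2 of which lay below the filter.

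The 14 Cep genes that did not pass had log2 changes between -0.53 and 0.57. Negative values were -0.53 for the linker gene Cep250, -0.53 for Cep152, the scaffold of the centriole duplication kinase Plk4, -0.22 for the transition zone gene Cep290, -0.19 for Cep85, -0.17 for Cep83, -0.16 for Cep97, -0.08 for Cep44 and -0.07 for Cep112. Positive values were 0.03 for Cep78, 0.13 for Cep192, which recruits pericentriolar material, 0.21 for Cep350, 0.25 for the tubulin glutamylation gene Cep41, 0.38 for Cep170 and 0.57 for Cep295. The signs of Cep78 and Cep192 turned with the scaling, to -0.13 and -0.033 with median centring. With the replicate number as a block, Cep170 (adjusted p = 0.020) and Cep295 (adjusted p = 0.034) passed as higher. Cep290 (-0.38), Cep85 (-0.35) and Cep83 (-0.33) passed as lower with median centring. Other probe sets of Cep44 and Cep112 gave larger falls than the brightest, -1.25 for Cep44 and -1.09 and -1.16 for Cep112. A second Cep85 probe set gave -0.77. In the other direction, further probe sets of Cep170 (0.46, limma adjusted p = 0.011) and Cep41 (0.61, limma adjusted p = 0.014) passed as higher. With the mean of all probe sets of a gene, Cep112 (-0.77, adjusted p = 0.0067) and Cep85 (-0.48, adjusted p = 0.027) passed as lower. With the same mean, Cep170 (0.42, adjusted p = 0.033) and Cep83 (0.55, adjusted p = 0.031) passed as higher in limma.

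Cep170b, Cep68 and Cep20 rose. Cep170b, a paralogue of the subdistal appendage gene Cep170, had 1494, 1443 and 1742 in Fn testes, against 659, 751 and 695 in Wt testes, a log2 change of 1.15 with a standard error of 0.11 (limma adjusted p = 2.8e-05). It was 2.22-fold higher, the only Cep gene past 2-fold in that direction. Cep68, of the linker that ties the centrosomes of a cell, had 1015, 999.9 and 886 in Fn testes, against 722, 690.3 and 604 in Wt testes, a log2 change of 0.53 with a standard error of 0.12 (limma adjusted p = 0.0035). Cep20 had 3039, 2418 and 2929 in Fn testes, against 1896, 2132 and 2001 in Wt testes, a log2 change of 0.47 with a standard error of 0.11 (limma adjusted p = 0.0036), and did not pass with arrays centred on their medians, at 0.31 (adjusted p = 0.083). Measured from the 0.32 of all genes, Cep68 and Cep20 stood 0.20 and 0.15 higher.

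**Figure D4:**
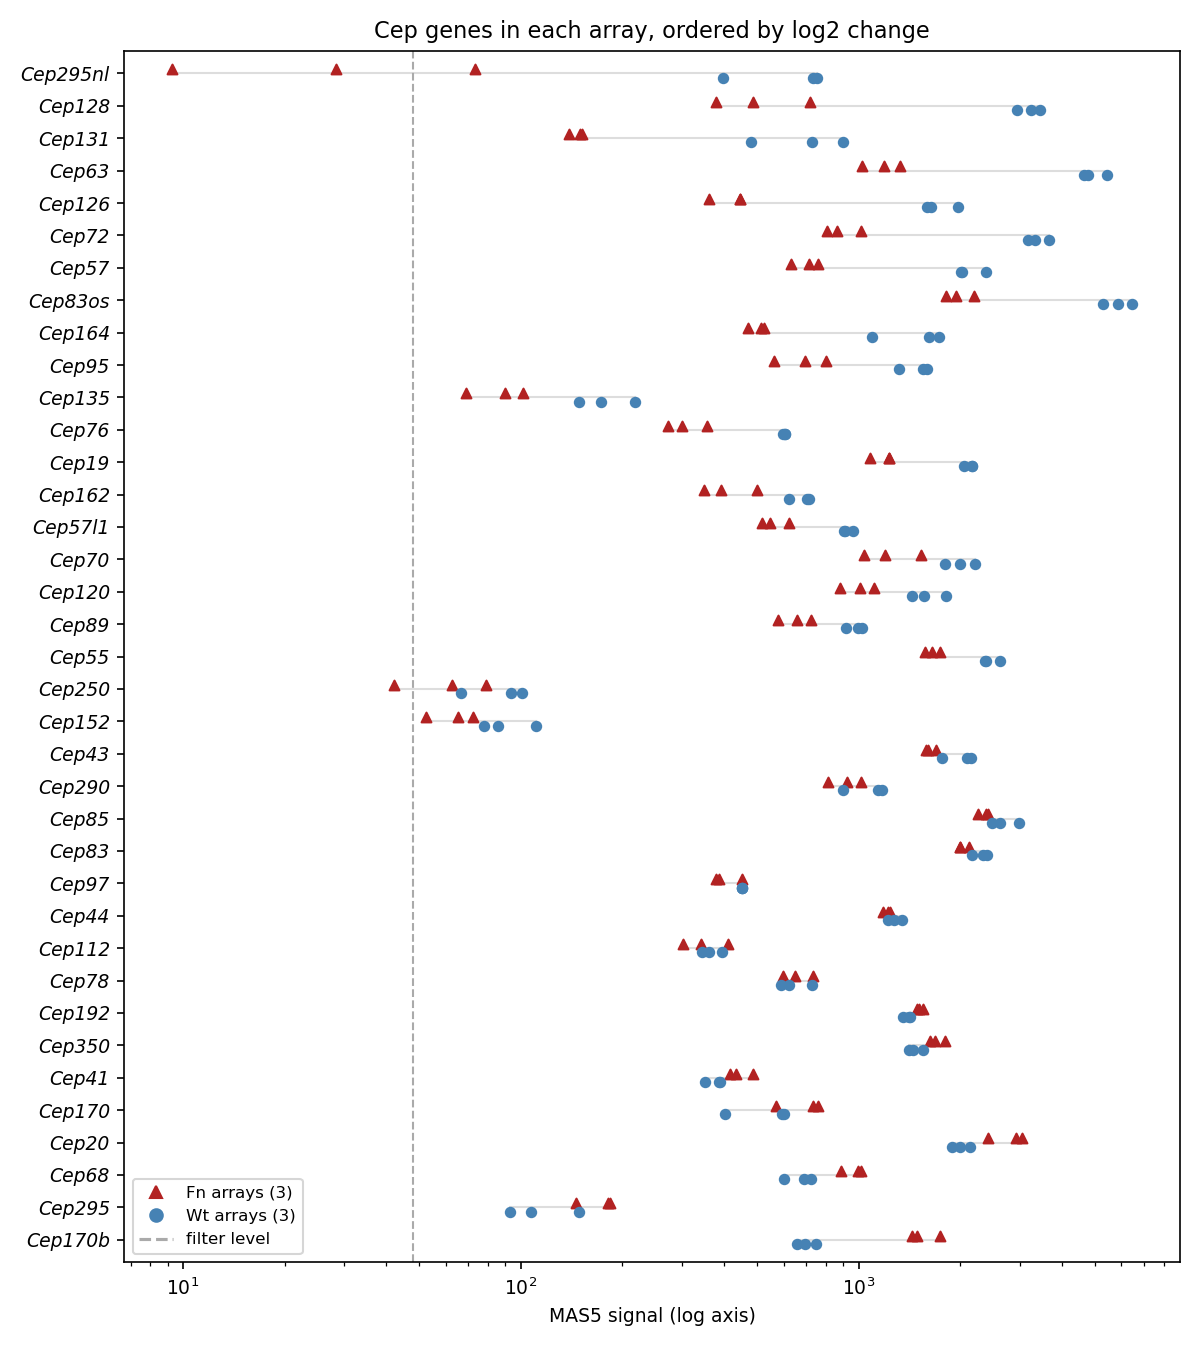
MAS5 signal on a log axis in each of the 3 Fn arrays (red triangles) and 3 Wt arrays (blue circles) for the 37 Cep genes, ordered from the largest fall to the largest rise, with the filter level of 48.0 dashed. Groups are apart at the top, where Cep295nl, Cep128 and Cep131 stand, overlap for several genes below the middle and are apart in the opposite direction for Cep170b at the bottom.

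Other probe sets of the same genes mostly moved the same way. Of 128 probe sets naming a member alone, 116 passed the filter, and 34 members had 2 or more of them. In 31 of the 34 all probe sets had 1 sign, in 17 all were also called, and in 0 were calls opposite. In 6 genes the log2 changes differed by more than 1, namely Cep89, Cep126, Cep350, Cep44, Cep83os and Cep112. For 7 members, Cep112, Cep128, Cetn2, Ift27, Bbs4, Ift122 and Ift81, the brightest probe set was of a type (x or s) that can read more than 1 transcript.

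The Fn arrays kept a common order over many members that fell. Fn replicate 2 had the highest Fn signal in 37 of the 47 members that fell, and Fn replicate 3 the lowest in 29. Among Wt testes, replicate 1 was the lowest in 34 of them. The share of all genes with these orders was not counted. Median signals of all probe sets were 98.7, 105.2 and 90.0 in Fn replicates 1 to 3, which is the same order. In Wt replicates 1 to 3 they were 89.9, 86.6 and 86.3, with replicate 1 the highest. Against the Wt mean, the median log2 change of all members was -0.76, -0.58 and -0.67 in Fn replicates 1 to 3, lowest in replicate 1. The summed signal of 10 genes of pachytene and diplotene spermatocytes was 19375, 25125 and 17912 in Fn replicates 1 to 3, against 78869 to 86541 in Wt testes. The part of the array-wide signal or of these genes in the members' order was not tested. The median change of the members was -0.61 without Fn replicate 1, -0.69 without Fn replicate 2 and -0.69 without Fn replicate 3.

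Genes of the same machinery that carry other symbols were read from lists of 69 tested genes, chosen with earlier results of these data known. Of these, 39 (56.5%) fell, 12 (17.4%) rose and 18 did not pass, against 24.7% and 44.9% of all genes, with a median log2 change of -0.61. Among 11 IFT proteins with other symbols 7 fell and 1 rose. Ttc30a2, of the Ttc30 genes that encode the IFT-B subunit IFT70, had 629.9, 848 and 458 in Fn testes, against 6917, 6293 and 8032 in Wt testes, a log2 change of -3.49 with a standard error of 0.2 (limma adjusted p = 7.6e-07), while Ttc30a1 had -1.17 and Ttc30b had -0.26 (adjusted p = 0.098). The 3 Ttc30 genes resemble each other in sequence, so that their probe sets may share targets. The IFT-A genes Ttc21b and Wdr35 had -1.48 and -1.18. The gene that rose was Tulp3, which carries receptors into cilia with IFT-A, with 812, 923 and 1268 in Fn testes, against 486, 326 and 392 in Wt testes, a log2 change of 1.31 with a standard error of 0.2 (limma adjusted p = 0.00032).

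The motors of the trains fell with them. Of 10 kinesin-2 and dynein-2 genes 8 fell and 1, Kif3c, rose (0.51). Dync2h1, the dynein-2 heavy chain, had 1089, 1228 and 1166 in Fn testes, against 2927, 3081 and 3364 in Wt testes, a log2 change of -1.43 with a standard error of 0.095 (limma adjusted p = 2.1e-06). Kif3b, a kinesin-2 motor subunit, had 547, 624 and 696 in Fn testes, against 1975, 1956 and 2692 in Wt testes, a log2 change of -1.82 with a standard error of 0.15 (limma adjusted p = 8.4e-06). The dynein-2 chains Tctex1d2 and Wdr60 had log2 changes of -1.74 and -1.13. Of 8 BBSome partners 5 fell and 1, Mkks, a chaperonin-like gene, rose (0.41). Lztfl1, which regulates BBSome entry into cilia, had 2715, 2843 and 2689 in Fn testes, against 7806, 7861 and 8068 in Wt testes, a log2 change of -1.53 with a standard error of 0.068 (limma adjusted p = 2.5e-07). The other falls with the smallest p were Wdpcp (-1.67), Rab3ip (-1.37) and Sdccag8 (-1.12).

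Partners at the transition zone and the centriole were more mixed. Of 15 transition zone genes 7 fell and 3 rose. Ahi1 had a log2 change of -2.09 and B9d1 of -1.46, while Cc2d2a rose by 1.07, Rpgr by 0.96 and Invs by 0.71. Of 20 genes of centrioles and the centrosome 9 fell and 5 rose. The falls with the smallest p were Cdk5rap2 (-1.996), 2700049A03Rik (-1.75), Poc5 (-0.92) and the satellite scaffold Pcm1 (-0.78). The 5 that rose were Nin (1.38), Ofd1 (1.03), Sfi1 (0.94), the gamma-tubulin gene Tubg1 (0.74) and the duplication kinase gene Plk4 (0.51). Invs, Nin, Ofd1, Sfi1, Tubg1, Plk4, Tulp3, Ttc30b, Kif3c and Mkks were named after their values were seen.

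RFX factors and FOXJ1 are transcription factors known for switching on ciliary genes. Rfx2, which mouse spermatids require, had 445, 594 and 492 in Fn testes, against 2069.9, 2402 and 3132 in Wt testes, a log2 change of -2.30 with a standard error of 0.17 (limma adjusted p = 3.6e-06). Rfx4 read 344, 433 and 236 in Fn testes, against 1417, 1374 and 1574 in Wt testes, a log2 change of -2.15 with a standard error of 0.2 (limma adjusted p = 1.9e-05). Foxj1 read 65.2, 49.5 and 59.6 in Fn testes, against 230.1, 206 and 239.6 in Wt testes, a log2 change of -1.96 with a standard error of 0.21 (limma adjusted p = 4.7e-05). All Fn signals of these genes were below all Wt signals. Rfx3, the RFX factor of motile and primary cilia, rose, with 181, 180.5 and 256 in Fn testes, against 116, 76.9 and 79.2 in Wt testes, a log2 change of 1.19 with a standard error of 0.24 (limma adjusted p = 0.002). Rfx1 read 416, 398 and 439 in Fn testes, against 426, 397 and 433 in Wt testes, with overlapping groups, and did not pass (adjusted p = 0.98).

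**Figure D5:**
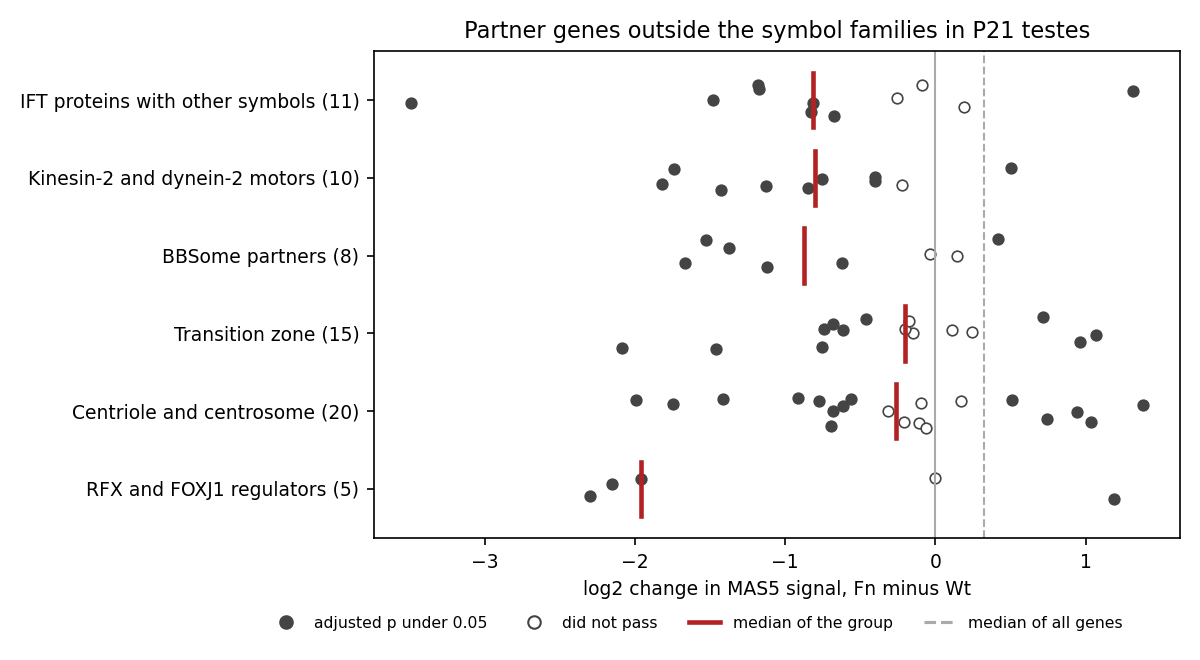
Each point is 1 of 69 genes of the ciliary and centrosomal machinery whose symbols lie outside the families, placed by its log2 change in MAS5 signal (Fn minus Wt, 3 arrays each) within its list; filled points had a limma adjusted p under 0.05 and red bars mark medians. Motors, IFT and BBSome partners lie mostly left of 0, and transition zone and centriole genes lie on both sides.

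Genes listed as markers of late germ cell stages were lower together with the members. By the paper, pachytene spermatocytes predominated in both genotypes at this age, with haploid spermatids few or absent. It also raised the concern that growth retardation might leave Fn spermatocytes at an earlier stage than those of Wt testes. Cell numbers and stages were not measured here. Of 10 genes of pachytene and diplotene spermatocytes 9 fell and 0 rose, against 24.7% and 44.9% of all genes tested. The summed signals of the 10 were 17912 to 25125 in Fn testes, against 78869 to 86541 in Wt testes. The lactate dehydrogenase of these cells, Ldhc, had a log2 change of -1.77. Of 8 round spermatid genes that passed the filter 8 fell, with sums over the 10 on the array of 2244 to 2868 in Fn testes, against 20139.9 to 23725 in Wt testes, and Dkkl1 had -2.98. Of 7 genes listed as elongating spermatid markers that passed the filter 6 fell. Sums over the 8 on the array were 180.2 to 289 in Fn testes and 2703 to 5075 in Wt testes. By the paper, mouse testes at this age hold no germ cell stage later than round spermatids. These signals therefore do not show that elongating spermatids were present in Wt testes. No marker of these 3 lists was listed at 0, though Smcp read 1.7 to 2.7 in Fn testes. In the elongating spermatid list, Fn geometric means of Prm2, Smcp, Odf1, Akap4 and Gapdhs lay below the filter level. The same held for Acrv1, Catsper3 and Lyzl4 among round spermatid genes and for Ccna1 and Spag6 among pachytene and diplotene genes. A gene this low in Fn testes passes the filter only if its Wt signal is higher, so the filter set its direction. The falls of these genes therefore do not test direction. The sums did not use the filter.

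Early meiotic markers were mixed, and markers of spermatogonia and of somatic cells were level or higher. Sycp3, a meiotic chromosome protein of germ cells, read 11881 to 12929 in Fn testes and 11147 to 12050.4 in Wt testes. Of 9 genes of early meiotic prophase 2 fell and 3 rose, with sums of 39361 to 43296 in Fn testes and 47524 to 49335 in Wt testes. All 7 spermatogonial genes rose, with sums of 13193 to 15112 in Fn testes and 6633 to 8149.6 in Wt testes. Of 11 Sertoli genes 10 rose, with sums of 53291 to 55862 in Fn testes and 32044 to 37274 in Wt testes. All 7 peritubular and stromal genes rose, with sums of 43924 to 46376 in Fn testes and 20689 to 26697 in Wt testes. Of 4 Leydig genes 2 rose and 0 fell, with sums of 6001 to 11818 in Fn testes and 6051 to 10021 in Wt testes.

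Multiciliated epithelium of the ducts next to the testis was represented by 4 tested genes, of which 2 fell and 1 rose, against 24.7% and 44.9% of all genes. Sums of the 4 with Scgb1a1, which lay below the filter, were 329 to 414 in Fn testes and 1337 to 1723 in Wt testes. Deup1, the brightest of them in Wt testes, read 51.9 to 112.1 in Fn testes and 949.6 to 1261 in Wt testes. It made up most of the Wt sums. Foxj1 also fell (-1.96), whereas Ccno did not pass (0.12, limma adjusted p = 0.71) and Pax8 rose (0.87). The list as a whole therefore did not move 1 way. None of these genes was listed at 0. The part of each cell type in the changes of the 67 genes was not tested.

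Promoter windows were searched because many members moved together and RFX factors bind a motif called the X-box. The search used GTTGCCA, a half-site of the X-box called the core here, and the full cyclic AMP response element TGACGTCA. Each was sought on both strands in RefSeq windows (GRCm38.p6) of 250 bases before to 50 bases after a start. A full X-box was not searched for, so a match to the core need not be one. Neither motif contains the other. Of the 58 members with a window 9 held the core (15.5%), against 5.02% of 27025 genes with a window and 5.07% of those tested. Of the 40 members with a window that fell, 7 held it (17.5%). The cyclic AMP element lay in the windows of 2 members (3.45%), Cep57 and Ift57, against 2.03% of all genes with a window and 3.41% of those tested. A match is a description of these letters only, and the genes differ in how many windows each has.

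Stretches of 30 bases around the core are shown for the 8 of these genes with the largest log2 changes, so that its flanks can be compared. The core is in capitals, written GTTGCCA on the strand of the gene or TGGCAAC where it lies on the opposite strand. The stretches lie at chr12:91384366-91384395 (minus strand) for Cep128, chr19:4906608-4906637 (minus strand) for Bbs1, chr15:78174072-78174101 (minus strand) for Ift27, chr4:152478132-152478161 (plus strand) for Nphp4, chr5:124598751-124598780 (plus strand) for Tctn2, chr19:40612353-40612382 (minus strand) for Tctn3, chr14:57424080-57424109 (plus strand) for Ift88 and chr6:30693854-30693883 (minus strand) for Cep41.
Cep128: ggctagttcaaGTTGCCAtagctgcaagtc
Bbs1: tggctgagctgGTTGCCAaggcgacgcctg
Ift27: ggttgatgatgGTTGCCAggagcctgtttg
Nphp4: ggtgcatcccgGTTGCCAgctgatgttggg
Tctn2: attgattggtgGTTGCCAtggctgcaggca
Tctn3: ggctcccagcgGTTGCCAggtaacgggaac
Ift88: ggagtcgcgccTGGCAACggctgggcgtcc
Cep41: cgcgttgccctTGGCAACcattgagcagct
The first 7 belong to genes that fell, from -2.65 for Cep128 to -0.55 for Ift88, and the last to Cep41, which did not pass. The ninth gene with the core, Cep112, did not pass either. Of the 4 Nphp and Tctn members 3 held the core (Nphp4, Tctn2 and Tctn3). So did 2 of 9 IFT-B genes with a window, 1 of 6 BBSome genes and 3 of 32 Cep genes. The core was in 0 of 2 IFT-A genes with a window, 0 of 2 chaperonin-like BBS genes and 0 of 3 centrins.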

How the data were processed

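RNA of whole testes from 3 Fn and 3 Wt samples at postnatal day 21 was hybridised to 6 Affymetrix Mouse Genome 430 2.0 arrays. The values the authors deposited are MAS5 signals (version not given), a linear intensity for each of 45037 probe sets, and GeneSpring is named in the paper. Means trimmed by 2% at each end were 497.7 to 498.0, which shows that the deposited arrays share a common scale. Median signals were 90.0 to 105.2 in Fn and 86.3 to 89.9 in Wt arrays. Precision is limited by the number of arrays.

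Genes came from the platform annotation, in which 34945 probe sets named 1 gene, 932 several and 9160 none. The brightest of the first kind stood for a gene. The 1 value of 0 was set to 0.1. Log2 signals were tested in R 4.3.3 with limma 3.58.1 (lmFit, eBayes with an intensity trend) over the 27022 probe sets at or above the 40th percentile of mean log2 signal, with Benjamini-Hochberg adjustment over all of them. A group with a geometric mean under that level (48.0) gives a bound, the brighter geometric mean over the level. The steps were tested on simulated data, in which estimates were unbiased but recovery of 2-fold changes was limited. A first, stricter criterion for that test was missed at this fold size, and the criterion was then eased with the fit left as it was.

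The members, gene lists and the rule for named genes were chosen with earlier results of these data known. By that rule every member is named, all families but Cep have values for each array, Cep genes have them for the 12 largest falls and 8 largest rises past the test, and partner lists are named by smallest p. RefSeq promoter windows matched 58 of the 67 members. The partner genes Arl6, Rpgrip1l, Anks6 and Kiaa0586 were not matched by symbol.

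Replicate numbers come from the labels. The deviations of same-numbered Fn and Wt arrays from their group means correlated at 0.13, 0.12 and 0.16, and those of other pairs at -0.15 to 0.04, and same-numbered Fn and Wt samples were therefore regarded as pairs. This pairing rests on the values. The values printed come from the fit without the block, and the fit with the block was an alternative. Spearman correlations were 0.951 to 0.961 within and 0.897 to 0.914 between genotypes, and no pair of arrays shared over 0.27% of its values. Alternatives covered scaling, filter, pseudocount, probe set choice, threshold, the replicate block and leaving out each array.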

Additional observations from a re-analysis of the deposited data

How the results depend on the processing

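The number of the 67 genes called lower in Fn testes was 42 to 51 over the settings run and the number called higher 3 to 6. Of the 47 that fell, 36 were tested and called lower in every setting, as were Cep135 and Cep295nl in all but the filter at the 60th percentile, which left them out, and of the 4 that rose, 3 were called higher in every setting. The replicate block gave 47 lower and 6 higher, with Cep170 and Cep295 added, and changed no other member's call. Centring each array on its median gave 51 lower and 3 higher, 0 members higher by more than 2-fold and a median log2 change of the members of -0.84. With 1 array left out, that median ran from -0.74 to -0.59, both with a Wt array missing (replicates 1 and 3), and the members higher by more than 2-fold numbered 1 to 2. The partner genes called higher numbered 7 instead of 12 with the mean of all probe sets of a gene, which counts dim probe sets too. That mean also turned the signs of Ift81 (0.14), Cep83 (0.55), Cep97 (0.022), Cep350 (-0.27) and Cep192 (-0.18). Signs turned with median centring for Cep78 (-0.13) and Cep192 (-0.033), and with quantile normalization for Cep78 (-0.091). With 1 array left out, the ranges were -0.072 to 0.072 for Bbs12, -0.19 to 0.031 for Cep112 and -0.049 to 0.12 for Cep78, genes that did not pass the test on all 6 arrays. The cause of these turns was not tested. With 3 arrays a group, small changes such as those of Ift20, Ift52, Ift81, Bbs2 and Cep43 lie close to the threshold.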
